A study of Mus musculus with 2 samples.

Results

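Emx1, Emx2, Lhx2, Otx1, Pax6, Nr2f1, Nr2f2 and Sp8 encode transcription factors that set forebrain and cortical area identity, and their chromatin was read in open-chromatin maps of the mouse cortex. The 8 genes were taken by symbol from the GENCODE M21 annotation, out of 21938 protein-coding genes. For each, the peaks and footprints within 500 bp of every annotated transcription start were collected, and the distal peaks in the gene body with 50 kb on either side. A distal peak lay more than 500 bp from every annotated start of any gene. A peak of replicate 1 that overlapped a peak of replicate 2 by at least 1 bp was called shared, and peaks of 1 library were counted apart. Coordinates are on mm10 and counted from 1.

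In the embryonic forebrain, progenitors of the cortex carry graded amounts of several transcription factors, and opposing gradients divide the cortical sheet into motor, sensory and visual areas. Emx2 and Nr2f1 are high toward the back of the cortex, while Pax6 and Sp8 are high toward the front. Lhx2 and Emx1 mark the cortical primordium itself, Otx1 persists in deep-layer neurons, and Nr2f2 is prominent in the caudal part and in interneurons that migrate in from the ventral forebrain. After birth the cortex holds mostly neurons and glia, and several of these genes stay active only in some of them.

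The 2 libraries were DNase-seq maps of female left cerebral cortex tissue at an age of 10 days. The strain of both libraries was B6CASTF1/J, a hybrid whose parents are the C57BL/6J and CAST/EiJ inbred strains. No treatment or mutation was labelled, all cortical cell types were mixed, and reads were not assigned to a parental genome. The labels number the animals apart but give both the same donor identifier, so whether the libraries came from separate animals is not settled. The spread between replicates 1 and 2 holds technical variation, joined with animal variation only if they did. DNase I cuts accessible DNA, a peak is a stretch with many cuts, and a footprint is a short protected stretch inside one. In bulk tissue, fewer cells with an open site and less cutting per cell cannot be told apart.

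Each library came with a stricter peak list, of 60071 peaks in replicate 1 and 70563 in replicate 2, and a larger one of 109563 and 121943 peaks. The median signal of a stricter peak was 0.830 in replicate 1 and 0.925 in replicate 2. Signal values were whole multiples of a smallest step in each library, and the median peak held 120 steps in replicate 1 and 122 in replicate 2. As a check of the tissue, both stricter lists held a promoter peak for 4 of 8 genes of cortical excitatory neurons (beside 55.2% of all protein-coding genes) and for 0 of 8 midbrain and hindbrain regulators. The larger lists raised the count to 6 of 8 excitatory genes (beside 61.0%) and left that of the midbrain and hindbrain genes at 0. The share of excitatory genes was thus near that of all genes, and the tissue label had no support from them beyond it. Neurod2 and Camk2a, a differentiation factor and a synaptic kinase of excitatory neurons, had the highest promoter signals of their list at 2.33 ± 0.944 and 2.92 ± 0.624 (SD, n = 2).

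A few sequences carry the results on these genes. At the promoters, the peaks lay within annotated 5′ untranslated exons over their whole width (118 of 118 bp in Emx1, 200 of 200 bp in Emx2, 300 of 300 bp in Lhx2 and 260 of 260 bp in Pax6), so only a short protected site is shown for each. Each site was chosen because its shared footprint holds a match, so the presence of a match was set by the choice. A shared footprint here is the joined span of overlapping footprints from both libraries, so a base in it can be covered in a single library. All bases of the sites lay in such spans. Printed sites were cut at 30 bases, so those of Lhx2 and Pax6 show only 30 of 32 and 30 of 35 covered bases. Capitals mark matches to the GC box GGGCGG, a letter pattern of SP-family zinc finger proteins, and to the CCAAT box, added after the sequences were seen. They are chr19:59458517-59458531 at Emx2, chr2:38350978-38351007 at Lhx2 and chr2:105675368-105675397 at Pax6, all on the plus strand of the RefSeq GRCm38.p6 genome. The Emx1 promoter had no footprint in common between the libraries.
Emx2 promoter site: cGGGCGGGCGGctgg
Lhx2 promoter site: aggcctgGGGCGGcGGGCGGCCAATggcac
Pax6 promoter site: CCAATcggctggcgcgaggccccggcgctg

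The strongest shared distal peak of each of the 4 genes with the most such peaks is shown next, since these were the most accessible sites outside promoters. Capitals mark bases in shared footprints, again the joined spans of overlapping footprints from both libraries. Those of Emx1 (chr6:85160301-85160500), Emx2 (chr19:59418101-59418320) and Lhx2 (chr2:38403281-38403500) are read on the plus strand, which is also the direction of these genes. That of Nr2f2 is the stretch common to both libraries (chr7:70361681-70361920), read on the minus strand in the direction of the gene. Shared footprints covered 83 of 200 bases at the Emx1 site, 54 of 220 at the Emx2 site, 46 of 240 at the Nr2f2 site and 0 of 220 at the Lhx2 site.
Emx1 distal peak: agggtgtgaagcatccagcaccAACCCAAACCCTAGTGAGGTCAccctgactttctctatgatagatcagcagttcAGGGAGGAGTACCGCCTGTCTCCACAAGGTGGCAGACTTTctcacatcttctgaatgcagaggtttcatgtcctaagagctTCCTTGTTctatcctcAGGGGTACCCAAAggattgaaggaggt
Emx2 distal peak: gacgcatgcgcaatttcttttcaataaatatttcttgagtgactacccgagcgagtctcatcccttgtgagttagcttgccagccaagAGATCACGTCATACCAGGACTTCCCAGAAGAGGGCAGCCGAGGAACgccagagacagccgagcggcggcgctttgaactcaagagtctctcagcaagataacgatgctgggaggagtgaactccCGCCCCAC
Lhx2 distal peak: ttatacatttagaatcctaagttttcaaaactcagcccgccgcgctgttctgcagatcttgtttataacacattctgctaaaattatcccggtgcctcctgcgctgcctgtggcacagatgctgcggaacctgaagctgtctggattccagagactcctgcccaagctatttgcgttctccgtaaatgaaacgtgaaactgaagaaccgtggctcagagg
Nr2f2 distal peak: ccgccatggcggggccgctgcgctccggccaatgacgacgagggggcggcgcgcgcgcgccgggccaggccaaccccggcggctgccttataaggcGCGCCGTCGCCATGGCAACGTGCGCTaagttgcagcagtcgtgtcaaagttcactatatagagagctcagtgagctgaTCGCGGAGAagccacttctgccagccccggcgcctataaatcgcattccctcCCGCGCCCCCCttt

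The strongest peak in the window of any of the 8 genes was not a promoter or distal peak of theirs. It lay at a start of A830082K12Rik, an annotated gene whose body overlaps Nr2f1, and is printed because the results on Nr2f1 turn on it, as a choice made after its values were seen. The stretch common to both libraries is chr13:78201621-78201840, read on the minus strand in the direction of Nr2f1, with 50 of 220 bases in shared footprints (capitals).
A830082K12Rik start: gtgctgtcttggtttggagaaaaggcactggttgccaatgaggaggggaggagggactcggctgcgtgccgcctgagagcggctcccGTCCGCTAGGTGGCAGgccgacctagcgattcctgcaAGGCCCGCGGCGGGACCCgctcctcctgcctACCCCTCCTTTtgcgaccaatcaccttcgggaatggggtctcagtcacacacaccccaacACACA

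Promoters of the 8 genes fell into 3 classes. Emx1, Emx2, Lhx2 and Pax6 had a promoter peak in the stricter lists of both libraries, Otx1 and Nr2f1 had a peak in a single library, and Nr2f2 and Sp8 had none. Of all protein-coding genes, a promoter peak was present in both libraries at 55.2%, in exactly 1 library at 4.67% and in neither at 40.2%, so the share of 4 of 8 stood near the background. By library, replicate 1 had such a peak at 5 of the 8 genes (56.0% of all genes) and replicate 2 at 5 (59.0%). In the larger lists 5 of the 8 genes had a peak in both libraries, with Otx1 added, against 61.0% of all genes, and 1, Nr2f2, had none in either, against 35.0%. No test was possible with 1 group of 2 libraries, and the counts are descriptions.

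Lhx2, a LIM homeodomain factor that specifies cortical tissue at the expense of its neighbours, had the highest promoter signal of the 8, with 2.14 in replicate 1 and 3.34 in replicate 2 (2.74 ± 0.847, SD, n = 2). Pax6, a paired-box and homeodomain factor of radial glia, followed with 2.01 and 2.29 (2.15 ± 0.200). Emx2, a homeobox factor that promotes caudal area identity, had 1.36 and 1.49 (1.43 ± 0.0922). Emx1, its paralogue and a marker of the cortical excitatory lineage, had 0.782 and 1.05 (0.914 ± 0.187). Lhx2 and Pax6 overlapped in their values across libraries, since the signal of Lhx2 in replicate 1 lay between both values of Pax6. Emx2 and Emx1 did not overlap with each other or with the higher pair. Among the 12105 genes with a promoter peak in both libraries, whose median signal was 2.89, these means stood at percentile 47.6 for Lhx2, 36.9 for Pax6, 20.8 for Emx2 and 8.71 for Emx1. All 4 were therefore below the median promoter.

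**Figure D1:**
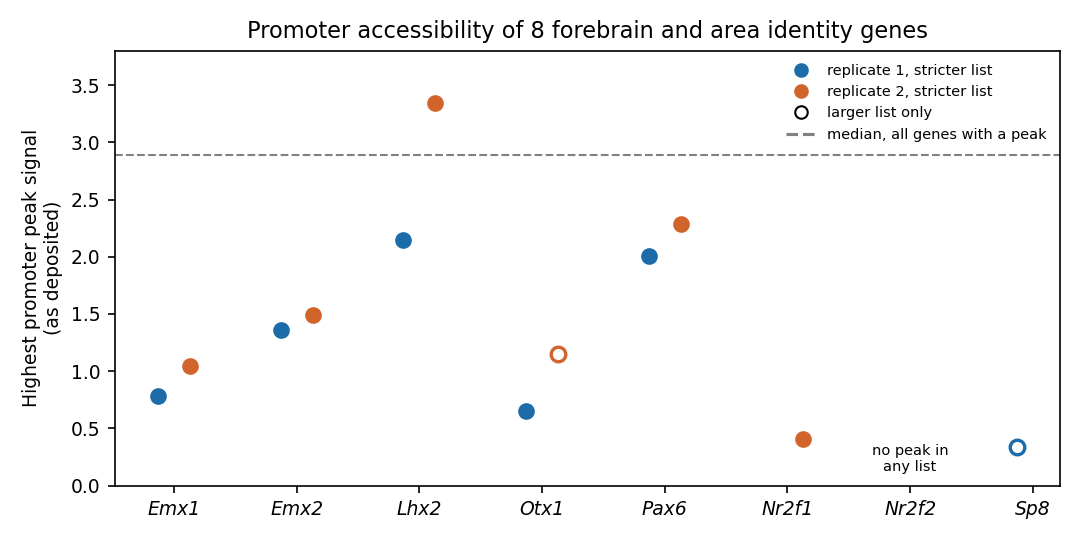
The highest deposited peak signal within 500 bp of any start of each gene, with replicate 1 on the left and replicate 2 on the right of each pair, filled points from the stricter lists and open points from the larger lists alone; the dashed line is the median of all genes with a peak in both libraries. Lhx2 reached 3.34 in replicate 2 and was the only member above the line of 2.89 in any library, while Nr2f2 had no peak in any list.

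In Lhx2 and Pax6 the open promoter was not at the start farthest upstream. Lhx2 (chr2:38339281-38369733, plus strand) has 7 annotated starts, and the single peak, chr2:38350881-38351180, sat at the start 11478 bp downstream of the first. At that first start neither list of either library had a peak, and no position had an FDR of its cut rate under 0.05, the limit of the deposited lists. Pax6 (chr2:105668900-105697364, plus strand) has 24 annotated starts, and its peak at chr2:105675261-105675520 served the 5 starts from 6209 to 6627 bp downstream of the first. Of the other Pax6 starts, 17 had no listed position in either library. The lowest FDR within the promoter windows was 5.34e-12 in replicate 1 and 3.98e-16 in replicate 2 for Lhx2, and 7.52e-12 and 1.74e-17 for Pax6. Emx1 (chr6:85187438-85204462) and Emx2 (chr19:59458372-59465357), both on the plus strand, had their peak at the first start. Over the 53 annotated starts of the 8 genes, 8 had a stricter peak in both libraries, 11 in replicate 1 and 9 in replicate 2, and 36 had no listed position in either. The same share over the starts of all genes was not counted, and 24 of the 53 starts are of Pax6. These counts therefore cannot be read as high or low.

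The Emx1 and Emx2 promoters differed in how well the libraries placed the peak. At Emx2 the peaks of both libraries shared 200 bp, chr19:59458501-59458700, in an exon that overlaps the antisense gene Emx2os, so cutting at the start of Emx2 and of Emx2os cannot be told apart there. At Emx1 the replicate 1 peak was chr6:85187501-85187618 and the replicate 2 peak chr6:85187441-85187515, with an overlap of 15 bp. In the larger lists the overlap at Emx1 was 145 bp. The Emx1 promoter was the weakest of the 4 also in its lowest FDR, 8.14e-05 in replicate 1 and 0.00019 in replicate 2, against 1.17e-07 and 8.23e-09 at Emx2.

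Nr2f1, the nuclear receptor COUP-TFI that promotes sensory area identity, had a promoter peak of low signal (chr13:78188973-78199757, minus strand, 6 starts). Replicate 2 had a peak of 0.409, or 54 steps, at chr13:78198361-78198700, near the start 1827 bp downstream of the first, and replicate 1 had none in either list. The lowest FDR at that start was 1.11e-07 in replicate 2, with no listed position in replicate 1. The first start of Nr2f1 had no peak in either library, although positions in its window reached an FDR of 6.39e-05 in replicate 2. Nr2f2, the related receptor COUP-TFII (chr7:70351944-70366735, minus strand), had no peak, no footprint and no listed position at any of its 6 starts in either library. Sp8, a zinc finger factor of the frontal cortex and of some interneurons (chr12:118846329-118852576, plus strand, 2 starts), had none in the stricter lists. Its only promoter peak was 0.339 in the larger list of replicate 1, with a lowest FDR of 0.0151.

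Promoters rich in CpG are often open in many tissues. Nr2f1 and Otx1, whose promoters lacked a stricter peak in 1 library each, had the highest CpG content of the 8 genes at their first starts. Promoter peaks were counted at all starts, however, and by the highest value over all starts the order differed. Emx2 then reached 0.901 and Pax6 0.849, above the 0.776 of Otx1, both at starts without a stricter peak. CpG observed over expected within 500 bp of the first start was 0.925 for Nr2f1, in the highest decile of genes, of which 91.9% had a promoter peak in both libraries. It was 0.776 for Otx1, in the eighth decile, where 88.2% did. Emx1, Emx2 and Lhx2 had 0.665, 0.719 and 0.689, in the seventh decile with 84.0%. Pax6 and Sp8, with 0.568 and 0.587, fell in the sixth with 74.1%. Nr2f2 had 0.258 at its first start, in the third decile with 18.2%, but 0.766 at its start at position 70360593. The median over protein-coding genes was 0.552.

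**Figure D2:**
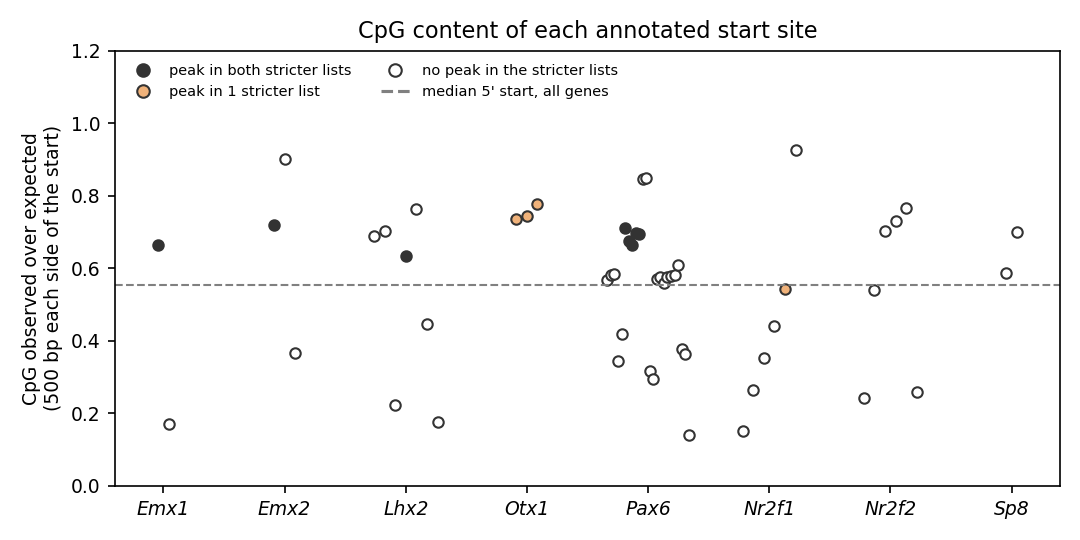
CpG observed over expected in the 1 kb window around each of the 53 annotated starts, ordered along the chromosome within each gene and filled by whether both, 1 or neither stricter list had a peak there; the dashed line is the median first start of all protein-coding genes, 0.552. The highest point, 0.925 at the first start of Nr2f1, had no peak, and starts with and without a peak stand side by side at values above the line.

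Protected sites at the promoters were few and were shared in 3 genes. Within 500 bp of the starts, Emx2 had 3 footprints in replicate 1 and 3 in replicate 2, with 3 shared. Lhx2 had 4 and 6 with 3 shared, Pax6 had 2 and 5 with 2 shared, and Emx1 had 3 and 3 with 0 shared. Otx1 had 14 in replicate 1 and 2 in replicate 2, with 0 shared, and Sp8 had 1 in replicate 1 alone. Nr2f1 and Nr2f2 had none, also not at the Nr2f1 peak of replicate 2. Emx2, Lhx2 and Pax6 were thus the 3 of 8 genes with a shared promoter footprint, against 54.0% of all protein-coding genes. In the 18 shared promoter and distal peaks of the members, 27 of 49 footprints of replicate 1 (55.1%) overlapped one of replicate 2, beside 58.6% of the 135030 in all shared peaks.

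Distal open sites were unevenly spread over the 8 genes. Emx1 had 6 shared distal peaks, Emx2 had 3, Lhx2 and Nr2f2 had 2 each, Nr2f1 had 1, and Otx1, Pax6 and Sp8 had none, which made 14 in all. The median protein-coding gene had 2, and 23.5% of all genes had none. Per 100 kb of window, Emx1 had 5.13 and stood at percentile 97.0 of protein-coding genes, and Emx2 had 2.80 at percentile 78.7. Nr2f2 with 1.74, Lhx2 with 1.53 and Nr2f1 with 0.903 lay around the gene median of 1.46. Of the 14 shared sites, 6 lay between genes, 6 in introns and 1 in an exon of another gene, and 1 in an intron of the member itself. A window can reach over neighbouring genes, so a peak in it is near the member and not assigned to it.

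**Figure D3:**
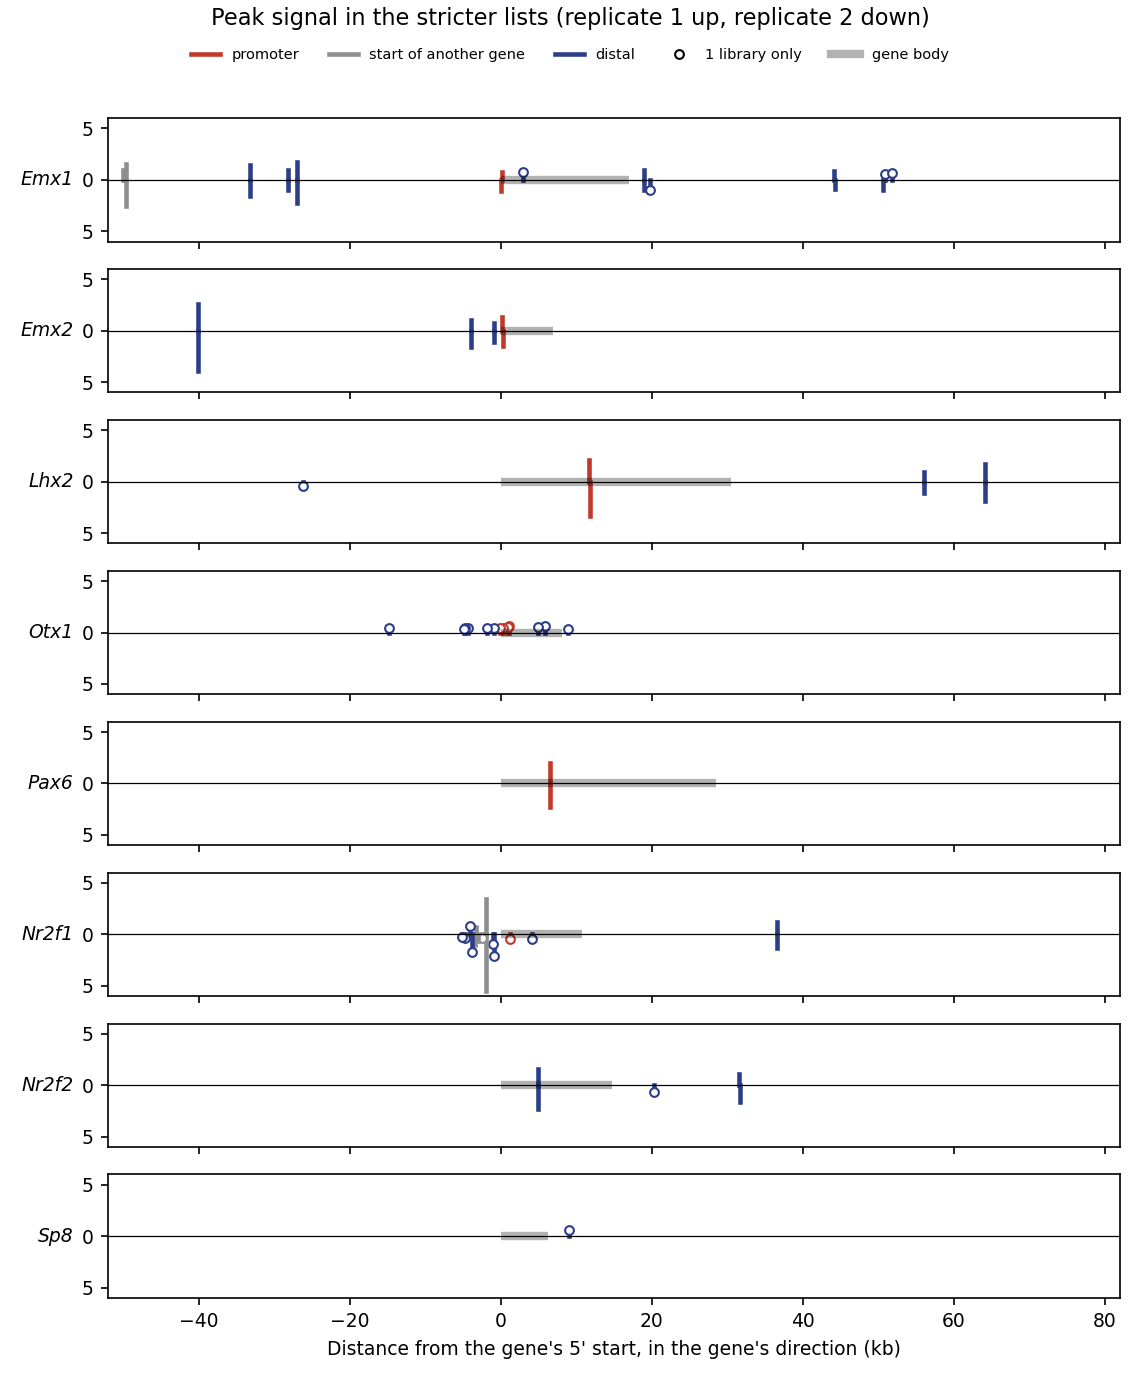
Signal of every stricter peak in the gene body with 50 kb on either side, by distance of its midpoint from the first start in the direction of the gene, with replicate 1 drawn upward, replicate 2 downward and open circles on peaks of 1 library. Emx1 has the densest set of shared distal peaks (6), the tallest bars stand at the A830082K12Rik start near Nr2f1 (3.40 and 5.48), and all 13 peaks at Otx1 are of replicate 1.

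Emx2 had the strongest shared distal peak of the 8 genes, chr19:59418101-59418320, at 40161 bp upstream of its first start and between genes. Its signal was 2.64 in replicate 1 and 3.88 in replicate 2, above the Emx2 promoter in both libraries and at percentile 98.2 of the 33824 shared distal peaks. The second Emx2 site, chr19:59454340-59454468 in an intron of Emx2os, had 1.02 and 1.58. The Emx1 site at 27037 bp upstream had 1.78 and 2.27, at percentile 92.2, and was likewise above its own promoter in both libraries. The second Emx1 site, chr6:85154081-85154260, had 1.41 and 1.58 and lay in an exon of Spr-ps1. The Lhx2 site, 64110 bp downstream of the first start and between genes, had 1.68 and 1.84, at percentile 88.4, with 0.975 and 1.13 at the second, chr2:38395301-38395506. Over the 14 sites the median of the mean signals was 1.30, beside 0.901 over all shared distal peaks.

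At Nr2f2 the stricter peaks all lay more than 500 bp from its annotated starts. The site chr7:70361581-70361920 of replicate 1, in an intron of Nr2f2, had 1.62, and the overlapping peak of replicate 2 had 2.32, at percentile 91.4 of shared distal peaks. Its midpoint lay 1158 bp upstream of the start at position 70360593 and 4984 bp downstream of the first start. The second shared site, chr7:70335022-70335196 in an intron of Gm29683, had 1.11 and 1.65. The larger list of replicate 2 also held a pair of peaks inside Nr2f2 near a start of another gene, B130024G19Rik, chr7:70364921-70365104 with 0.705 and chr7:70365500-70365618 with 0.515, and replicate 1 had neither. With a promoter window of 2 kb in place of 500 bp, the number of the 8 genes with a promoter peak in both libraries was 6.

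At Nr2f1 the strongest peaks stood upstream of the gene, along A830082K12Rik. The peak at chr13:78201581-78201840 had 3.40 in replicate 1 and 5.48 in replicate 2, and its midpoint lay 1954 bp upstream of the first start of Nr2f1. A second peak, chr13:78202881-78203240, had 0.719 in replicate 1 and 1.03 in replicate 2. Nr2f1 also had 6 distal peaks of replicate 2 alone, a number reached by 1.73% of protein-coding genes. The strongest of these, chr13:78200511-78200714, had 2.06, and the next, chr13:78203461-78203760, had 1.71. Both were in the larger list of replicate 1, with 1.40 and 1.30, so the libraries differed there in list membership and not in the presence of a peak. Of the 12925 stricter peaks of replicate 2 with a signal of at least 2.06, 83 (0.642%) had no overlap in the stricter list of replicate 1. The other 4 had 0.258 to 0.925 and no peak in either list of replicate 1. The single distal peak of replicate 1 alone, chr13:78203761-78203951, had 0.796. The only shared distal site of Nr2f1 in the stricter lists, chr13:78163134-78163221 in an intron of Fam172a and Gm38604, had 1.24 and 1.35. It lay 36579 bp downstream of the first start. Further peaks of replicate 2 alone lay downstream in its larger list, the strongest chr13:78175914-78176080 with 1.49.

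Pax6 and Sp8 had few distal peaks in their windows and no shared one in the stricter lists, as did 23.5% of all protein-coding genes. The Pax6 window held 0 distal peaks in the stricter lists. The larger lists added 1 shared site, chr2:105715868-105715960 in an intron of Elp4, with 0.346 and 0.417, and 1 peak of replicate 2, chr2:105730798-105730980, with 0.440. The Sp8 window held 1 stricter peak of replicate 1, chr12:118855245-118855386, with 0.602, and the larger list of replicate 2 held the same site with 0.652. It lay 8987 bp downstream of the first start of Sp8.

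Otx1, a homeobox factor of deep-layer cortical neurons (chr11:21994764-22002897, minus strand), differed between the libraries in its whole neighbourhood. In the stricter lists replicate 1 had 4 promoter peaks and 9 distal peaks, and replicate 2 had 0 and 0. At least 9 distal peaks of replicate 1 alone were found at 0.137% of protein-coding genes, and Otx1 was the single gene (0.00456%) that also had no shared one. The 13 peaks were weak, from 0.353 to 0.650, below the median stricter peak of 0.830. The strongest was the promoter peak chr11:22001361-22002120 with 0.650, and it overlapped a second promoter peak, chr11:22001741-22002124 with 0.588, so the 13 are not all separate stretches. The strongest distal peak, chr11:21996921-21997200 in an intron of Otx1, had 0.643.

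Within 10 kb of the first start of Otx1 the larger lists held 26 peaks of replicate 1, with signals of 0.221 to 0.650 and a median of 0.342, and 2 of replicate 2. The widths of these peaks summed to 6621 bp in replicate 1 and 370 bp in replicate 2. Some peaks of replicate 1 overlapped each other, so fewer bases were covered than this sum. Footprints numbered 41 and 3, and positions with an FDR under 0.05 covered 7934 bp and 388 bp. Only 2 of 21938 genes, Otx1 and Apba2, had as many as 26 such peaks of replicate 1, and the median gene had 2 in each library. The 2 peaks of replicate 2, chr11:21997100-21997258 and chr11:22001603-22001813, overlapped peaks of replicate 1 and had the higher signals, 0.917 and 1.15. Those signals are rarely missing from the stricter list: of the 27804 larger-list peaks of replicate 2 with at least 1.15, 198 (0.712%) had no stricter peak, and of the 36808 with at least 0.917, 937 (2.55%) had none. The lowest FDR at the Otx1 promoter was 1.77e-09 in replicate 1 and 0.00705 in replicate 2. The 13 stricter peaks had a median width of 191 bp (115 to 760 bp), close to the 193 bp of all stricter peaks of replicate 1. The run of weak peaks belongs to 1 library, and its cause was not tested.

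**Figure D4:**
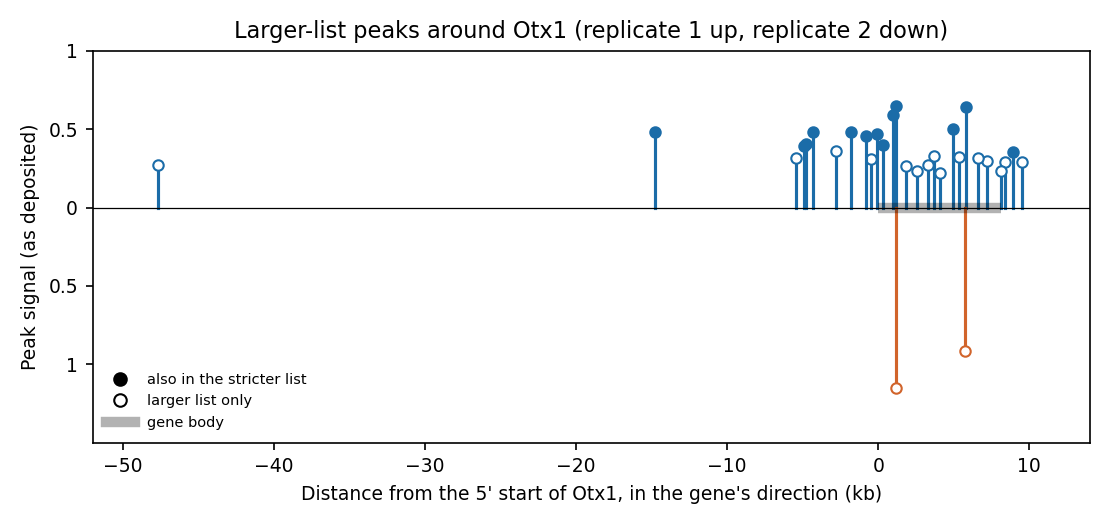
Signal of every larger-list peak in the Otx1 window, by distance of its midpoint from the first start in the direction of the gene, with replicate 1 upward and replicate 2 downward; filled points are also in the stricter list. Replicate 1 shows a run of peaks at or below 0.650 on both sides of the start, and replicate 2 shows 2 taller peaks, 0.917 and 1.15, both absent from its stricter list.

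Of the 23 distal peaks of 1 library at the 8 genes, Otx1 held 9 and Nr2f1 held 7. Of the 28 distal peaks of replicate 1, 14 (50%) were shared, and of the 23 of replicate 2, 14 (60.9%), beside 82.6% and 68.3% of all distal peaks of the same libraries. Without Otx1, 14 of 19 of replicate 1 were shared (73.7%). Without Otx1 and Nr2f1, 13 of 17 (76.5%) of replicate 1 and 13 of 16 (81.25%) of replicate 2 were. Of the distal peaks of 1 library at the 8 genes, the larger list of the other held 4 of 14 (28.6%) of replicate 1 and 5 of 9 (55.6%) of replicate 2. Over all distal peaks of 1 library these shares were 71.0% and 68.5%. Without Otx1 it held 3 of 5 (60%) of replicate 1. Without Otx1 and Nr2f1 it held 3 of 4 (75%) of replicate 1 and 3 of 3 (100%) of replicate 2. In Emx1, 2 of 3 peaks of replicate 1 alone were in the other larger list, and its strongest such peak, chr6:85190366-85190438 in an Emx1 intron with 0.768, was not. Its single peak of replicate 2 alone, chr6:85207108-85207199 with 1.00, had 0.581 in the larger list of replicate 1. The single peaks of replicate 2 alone at Lhx2 (chr2:38313054-38313147, 0.409) and Nr2f2 (chr7:70346355-70346440, 0.637) were also in the larger list of replicate 1.

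**Figure D5:**
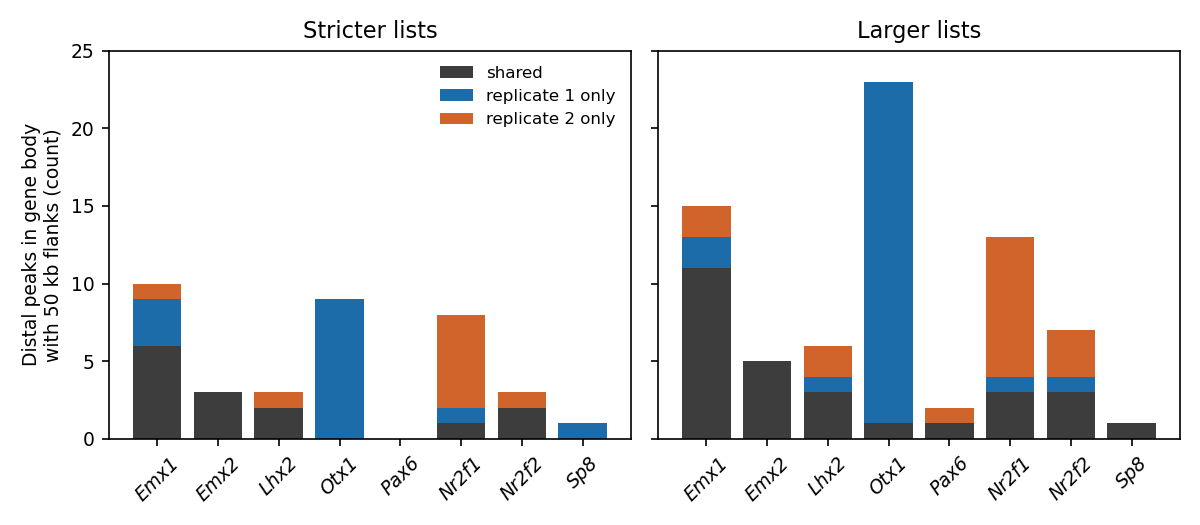
Number of distal peaks per gene in the body with 50 kb on either side, split into shared, replicate 1 only and replicate 2 only, for the stricter lists (left) and the larger lists (right). Shared peaks lead at Emx1 with 6 and 11, peaks of replicate 1 make up 9 of 9 and 22 of 23 at Otx1, and peaks of replicate 2 lead at Nr2f1 with 6 and 9.

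The order of the libraries at the shared sites depended on the scale of the signal. As deposited, replicate 2 was higher at 18 of the 18 shared promoter and distal peaks of the 8 genes, by a median log2 ratio of 0.28 (SD 0.22 over peaks), beside 84.9% of all 50856 shared peaks with a median of 0.37 (SD 0.35). Counted in steps, replicate 2 was higher at 13 of the 18, equal at 2 and lower at 3, with a median log2 ratio of 0.15, beside 74.3% higher over all shared peaks. In the larger lists 32 of 34 shared promoter and distal peaks of replicate 1 at the 8 genes were higher in replicate 2 as deposited. The share over all shared peaks of the larger lists was not counted, so this number has no background beside it. The 34 are not all separate sites, since at Otx1 and at Emx1 2 of them overlapped the same peak of replicate 2. Where several peaks of replicate 2 overlapped 1 of replicate 1, the strongest was used, a choice that can only raise the ratio. The widest promoter gap was at Lhx2, with 310 steps in replicate 1 and 441 in replicate 2, while Emx2 had 197 steps in each.

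Letter patterns were then searched in 200 bp centred on each shared peak, as exact letters on both strands. The GC box GGGCGG occurred in 3 of 4 member promoter peaks and in 52.5% of the 17032 shared promoter peaks, and the CCAAT box in 4 of 4 and 30.4%. CCAAT and the X-box core of RFX factors were added after the printed sequences had been seen. At Emx2 the pair of overlapping GC boxes lay in a shared footprint, at Lhx2 a pair of GC boxes and a CCAAT box lay in another, and at Pax6 a CCAAT box did. These are the printed sites, which were chosen for such a match. The shared promoter and distal peaks of the 8 genes held 49 footprints of replicate 1. Extended by 5 bp, 7 of them held a GC box and 2 a CCAAT box. Among the 134284 distinct footprints in all shared peaks, 8.11% and 3.84% did. The octamer ATGCAAAT of POU factors, found in 1.13% of shared promoter peaks, occurred in the Pax6 promoter peak outside its shared footprints.

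In the 200 bp windows of the 14 distal sites the GC box occurred in 3 and the CCAAT box in 5, beside 8.42% and 24.6% of all shared distal peaks. Matches outside the window were not counted. The printed Emx2 and Nr2f2 peaks each hold a GC box there, and the Nr2f2 peak also a CCAAT box. The E-boxes CAGCTG and CATCTG, bound by neuronal basic helix-loop-helix factors, occurred in 4 and 5 of 14, beside 19.0% and 24.9%. TAATTA, a homeodomain pattern, occurred in 1 (beside 4.32%), at the Emx2 site closest to its promoter. AGGTCA, the pattern of nuclear receptors such as the products of Nr2f1 and Nr2f2, occurred in 1 (beside 5.94%), the printed Emx1 site, where it lay in a shared footprint. SOX (ACAAAG) and CTCF patterns occurred in 1 each, beside 15.2% and 10.6%. The RFX core occurred in 1 of 14, beside 1.80%, within a shared footprint of the printed Nr2f2 site. The OTX (TAATCC) and AP-1 (TGANTCA) patterns and the consensus sequences of CRE, NRF1, ETS and nuclear factor I occurred in none of the member promoter or distal windows. In the 49 footprints counted above, AGGTCA and the RFX core occurred in 1 each, beside 0.559% and 0.408% of all footprints in shared peaks, and TAATTA and TAATCC in none. A match is a description of letters and shows no binding.

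Among 25 other genes of forebrain patterning, 10 had a promoter peak in both stricter lists (40%), 7 in 1 library and 8 in neither, beside 55.2%, 4.67% and 40.2% of all protein-coding genes. The larger lists brought the count in both libraries to 15. Of these 25, Tbr1 is also among the excitatory neuron genes and Otx2 among the midbrain and hindbrain genes above. The median promoter signal was 1.79 for the 4 members with a peak in both libraries, beside 2.26 for these 10 genes and 2.89 for all genes with such a peak. Zbtb20, a zinc finger repressor of the hippocampus, led with 7.58 in replicate 1 and 9.41 in replicate 2 (8.49 ± 1.29, SD, n = 2).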

How the data were processed

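DNase-seq was done on 2 libraries of 1 group. Per the descriptions that accompany the deposited files, the peaks, footprints and FDR list of a library came from its own filtered alignments on mm10, and replicates were not pooled. The aligner, callers, their versions and thresholds are not given in the sources used here. Deposited signal is a single value per peak on a scale that is not stated; within a library all values are whole multiples of a step (replicate 1 0.00692, replicate 2 0.00758; 100% within 0.01 of a whole number), which limits precision and leaves the scaling between libraries unchecked. The p-value column of the deposited footprints holds 0.01 throughout, so footprints were not ranked, and the deposited FDR lists hold values under 0.05 only.

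Genes came from GENCODE M21 and sequence from RefSeq GRCm38.p6. Overlaps of at least 1 bp were counted with Python 3.11.15, pandas 2.3.3 and numpy 2.4.6, sequence was read with pysam 0.24.0 and figures were drawn with matplotlib 3.10.9. The smaller list of each library was the main one. Counting was tested on simulated data, where all counts of 200 of 200 planted genes were recovered. SDs are over n = 2 libraries, no test was run, and no interval was drawn since read depth is unknown.

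The members and lists were chosen with earlier results of these data known. Named were all 8 genes, for each its strongest shared promoter peak, its 2 strongest shared distal peaks, its peaks of 1 library at promoters and the strongest distal one of each library, and of the other lists the 2 genes of highest signal and those without a peak where at most 3. A few genes under this rule are not reported here. Footprints were extended by 5 bp for a motif search. Alternatives were other windows, flanks, lists and overlaps, and each library alone.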

Additional observations from a re-analysis of the deposited data

How the results depend on the processing

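No paired analysis was possible because the libraries form 1 group and no contrast pairs them. Over 17 planned and 2 added settings, 27 summary values moved beyond their limit (1.5 times for a count, 1 SD for a signal) and 31 did not, and no direction reversed. The 26 values of single promoters stayed within their spread, but this is no test of stability. A value from 1 library always lies within 1 SD of the mean of 2, and the other settings returned the same peak. The median promoter signal of 1.79 was 1.43 with the larger lists, 2.06 with a 2 kb window, 1.17 with only the first start and 1.36 to 1.49 with 1 library. The 4 genes with a promoter peak in both libraries became 2 with only the first start, since the peaks of Lhx2 and Pax6 lie farther downstream. The 4 shared promoter peaks became 2 with only the first start and 7 with a 2 kb window. In a library alone nothing can be shared, and all promoter peaks were counted, 8 in replicate 1 and 5 in replicate 2. The 14 shared distal peaks became 28 with the larger lists, 4 with 10 kb flanks, 29 with 100 kb and 1 in gene bodies alone. All distal peaks of a library, shared or not, numbered 28 in replicate 1 and 23 in replicate 2. The 23 distal peaks of 1 library became 44 with the larger lists, 6 among the stronger 50% of peaks, 4 in gene bodies alone and 14 beyond 2 kb of a start. Left out after the data were seen, Otx1 left 14 of them, and Otx1 and Nr2f1 together left 7. The 8 shared promoter footprints became 5 with a 250 bp window, 18 with 2 kb, 3 with only the first start and 4 at a reciprocal overlap of 50%. All promoter footprints of a library, shared or not, numbered 27 in replicate 1 and 19 in replicate 2. The log2 ratio between libraries ranged from 0.15 in steps to 0.31 in the larger lists. Read depth is unknown, so a site without a peak is not shown to be closed, and 2 libraries allow no test.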
